A study of Rattus norvegicus with 18 samples.

Results

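The hearts of doxorubicin-treated rats that also received AICAR were compared with those of doxorubicin-treated rats that received saline in its place, by RNA sequencing of 6 libraries in each group, 12 of the 18 libraries of the series. The members are the libraries labelled DOX+AICAR and DOX+saline, and the comparison was fitted on those 12 alone. All animals were male Wistar rats, an outbred laboratory strain, of about 250 g at the start. Both groups had doxorubicin at 3 mg/kg per week as 5 weekly intravenous injections. DOX+AICAR animals had AICAR at 0.5 g/kg under the skin, and DOX+saline animals had saline by that route. The other 6 libraries, labelled saline, came from animals given no doxorubicin and serve here only to show each gene's level without the drug. Their sample titles carry another prefix and number series than those of the doxorubicin libraries. What these series stand for is not given, and whether saline levels differ for reasons besides doxorubicin was not tested. Each value comes from a whole piece of frozen heart, so fewer cells of a type and less RNA per cell cannot be told apart. The labels give no time of day at which tissue was taken.

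Doxorubicin, a cancer drug of the anthracycline class, traps topoisomerase II on DNA and is toxic to the heart. AICAR is taken up by cells, where adenosine kinase turns it into a mimic of AMP that activates AMPK, the kinase that senses low cellular energy and shifts metabolism towards fuel use. AMPK is regulated mainly by AMP binding and phosphorylation, which RNA levels do not show. AMPK is also known to phosphorylate the clock repressor CRY1 and mark it for destruction, which ties energy state to the circadian clock.

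Levels are in TPM (transcripts per 1000000: read numbers corrected for the length of the gene, then scaled so that every library has the same sum), and a difference is a log2 change on log2(TPM + 1), DOX+AICAR minus DOX+saline, with its standard error (SE). Calls are genes whose adjusted p was below 0.05 (limma, two-sided, over all genes tested). The table gives Ensembl identifiers without names. Of 183 identifiers of known heart, clock, metabolic and stress genes, 176 were used under their names. The names rest on general knowledge of rat identifiers and were checked only for the order of their rows along the genome, which cannot separate close neighbours. The labelled tissue fitted its markers: in the 12 libraries the cardiac actin gene Actc1 averaged 6577 ± 204 TPM (SD, n = 6, as throughout) without AICAR and 6715 ± 345 TPM with it, and cardiac troponin T, Tnnt2, 5912 ± 347 and 5907 ± 372 TPM.

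Libraries DOX+saline 1 and DOX+saline 6 were far more alike than any other pair within a group. Over genes with at least 50 reads in the pair, the median chi-square between them was 0.619, where sampling alone gives 0.455, and 5.81% of genes differed at p below 0.01, where sampling alone gives 1%. The other 29 pairs within the 2 doxorubicin groups had medians from 2.07 to 8.26. The pair differed by more than read sampling alone gives. This does not show 2 hearts, since 2 libraries made from 1 heart could also differ by more. Both libraries were kept as separate samples, but whether both came from 1 heart was not tested. The results are given also with their mean as 1 sample, an alternative chosen after seeing the data. The 2 groups had like depth, 27.4 ± 1.85 M recovered reads in DOX+saline (M, 1000000) and 27.4 ± 2.11 M in DOX+AICAR (two-sided exact permutation p = 0.994). Transcripts of 9 mitochondrially encoded genes held 6.82 ± 0.44% and 6.75 ± 0.525% of all TPM (exact permutation p = 0.894). DOX+saline libraries had 14659 ± 274 genes at 1 TPM or more and DOX+AICAR libraries 14401 ± 98.3 (exact permutation p = 0.0519, adjusted over these 3 measures 0.156).

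Few genes passed the test. Of 14475 genes tested, 16 were called (0.111%), 9 higher (0.0622%) and 7 lower (0.0484%) with AICAR. The count depended on the fit: leaving out 1 library gave 2 calls (without DOX+AICAR 7, 9 or 10) to 62 (without DOX+saline 2), all 18 libraries in the fit gave 214 and array weights gave 651. An unadjusted p below 0.05 was found for 2101 genes (14.5%), 947 higher (6.54%) and 1154 lower (7.97%). The groups did not overlap in 222 genes (1.53%), 97 higher (0.67%) and 125 lower (0.864%). The median change of all genes was -0.0018, with 7151 changes above 0 and 7324 below. Counts for the gene lists below are to be read beside these shares, and the lists were not tested as sets. Of the 171 named genes that passed the filter on low values, 2 were called, and both were lower with AICAR: the clock repressor Per1 and the fatty acid binding protein gene Fabp4. With DOX+saline 1 and 6 counted as 1 sample, 1 gene of the whole table and 0 named genes were called, and with both left out 3 and 0.

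**Figure D1:**
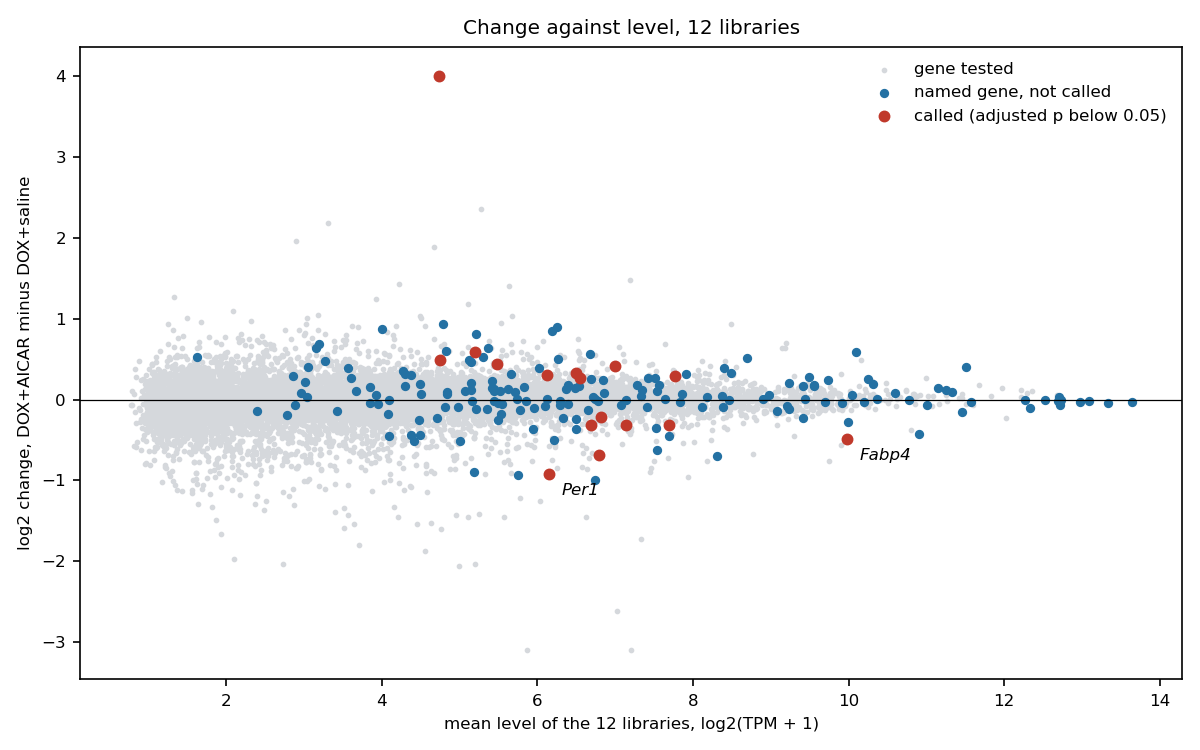
Log2 change (vertical axis, DOX+AICAR minus DOX+saline) against mean level over the 12 libraries (horizontal axis, log2(TPM + 1)); each point is 1 of 14475 genes, named genes in blue and the 16 called genes in red. Per1 and Fabp4 are the labelled called genes, and the point at 4.01 is the identifier without a name that differed most among called genes.

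Among the named genes, 3 of the 4 that were lower in every DOX+AICAR library belong to the circadian clock. Over all genes tested, 125 of 14475 (0.864%) were lower in this way. Of the clock genes, Per1 alone was called. The mammalian clock is a loop in which BMAL1 with CLOCK or NPAS2 activates the Per and Cry repressors and the output genes Dbp, Nr1d1 and Nr1d2, while NR1D1 and NR1D2 repress Bmal1. The repressors and output genes therefore peak at another time of day than Bmal1. Of 10 clock genes tested, 1 was called lower and 0 higher, and 3 were lower in every DOX+AICAR library than in any DOX+saline library. The list had 5 genes lower and 2 higher at an unadjusted p below 0.05, where 7.97% of all genes were lower and 6.54% higher. Its median change was -0.30 against -0.0018 over all genes.

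For 4 of the clock genes, the 250 bases before the annotated start are given from RefSeq (build GRCr8, all 4 on the plus strand, 5′ to 3′). Of the 10 clock genes, 7 had a single RefSeq entry. The first 3 sequences belong to the genes whose groups did not overlap, and the last to Bmal1, which differed the other way. Capitals mark any match to the motifs below.
Per1, chr10:54304126-54304375: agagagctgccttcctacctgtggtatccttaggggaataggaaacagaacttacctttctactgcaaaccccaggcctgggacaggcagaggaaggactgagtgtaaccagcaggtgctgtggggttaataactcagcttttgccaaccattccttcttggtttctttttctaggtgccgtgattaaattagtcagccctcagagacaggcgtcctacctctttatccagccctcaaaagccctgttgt
Dbp, chr1:105312006-105312255: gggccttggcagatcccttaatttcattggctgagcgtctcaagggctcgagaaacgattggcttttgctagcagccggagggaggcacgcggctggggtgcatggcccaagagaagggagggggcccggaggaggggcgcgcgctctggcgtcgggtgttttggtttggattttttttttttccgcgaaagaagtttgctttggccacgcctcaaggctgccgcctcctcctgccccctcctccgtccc
Nr1d2, chr15:9954784-9955033: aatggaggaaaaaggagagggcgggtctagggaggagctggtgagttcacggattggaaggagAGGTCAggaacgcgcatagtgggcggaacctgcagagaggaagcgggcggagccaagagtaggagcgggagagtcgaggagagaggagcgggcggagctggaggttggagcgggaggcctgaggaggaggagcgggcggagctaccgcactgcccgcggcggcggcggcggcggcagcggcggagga
Bmal1, chr1:176766078-176766327: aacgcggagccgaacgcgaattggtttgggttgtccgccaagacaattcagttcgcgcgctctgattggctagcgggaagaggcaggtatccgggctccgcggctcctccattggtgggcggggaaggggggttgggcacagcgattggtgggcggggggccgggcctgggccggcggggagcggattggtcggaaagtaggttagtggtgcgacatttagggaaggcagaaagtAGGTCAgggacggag
The motifs searched, 5 in all, were read on both strands: the E-box CACGTG bound by BMAL1 and CLOCK, the cAMP response element TGACGTCA, its part TGACG (which the full element contains), the D-box TTATGTAA bound by DBP, and AGGTCA, the core of the element bound by NR1D1 and NR1D2. None of the 7 clock windows held CACGTG or TGACGTCA, which 5.59% and 1.59% of 33469 promoter windows of this length held. TGACG lay only in the Per3 window among the 7 (18.2% of all windows), TTATGTAA only in that of Per2 (0.828%), and AGGTCA in those of Nr1d2 and Bmal1 (14.1%). These matches are letters in 1 window for each gene and say nothing of binding.

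Per1 (ENSRNOG00000007387), a core repressor that also responds quickly to stress hormones and cAMP, stood at 88.2, 90.7, 104, 95.5, 88.1 and 82.0 TPM in DOX+saline 1 to 6. In DOX+AICAR 7 to 12 it stood at 49.5, 73.6, 45.6, 39.9, 39.6 and 45.4 TPM. Every DOX+AICAR library lay below every DOX+saline library, and DOX+AICAR 8 lay nearest to them. The change was -0.92 (SE 0.13, 95% interval -1.20 to -0.64, adjusted p = 0.0255), 0.529 times the DOX+saline level. Saline libraries held 8.37 to 23.6 TPM, so the DOX+AICAR libraries lay between the other groups. The call was lost with DOX+saline 1 and 6 as 1 sample (-0.94, adjusted p = 0.0528) and in 10 of the 12 fits that left out 1 library (adjusted p from 7.86e-05 to 0.0722 over the 12), with little movement of the change itself.

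Dbp (ENSRNOG00000021027), a transcription factor that carries clock output, stood at 118, 109, 151, 227, 137 and 112 TPM in DOX+saline and at 80.4, 104, 50.3, 66.4, 50.8 and 71.7 TPM in DOX+AICAR. The groups did not overlap, though DOX+saline 2 and DOX+AICAR 8 lay close. The change of -0.998 (SE 0.21) did not pass the threshold (adjusted p = 0.0825), and saline libraries held 16.7 to 25.1 TPM.

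Nr1d2 (ENSRNOG00000046912), a nuclear receptor that represses Bmal1, ranged from 62.4 to 73.9 TPM in DOX+saline (median 68.4) and from 44.9 to 62.2 TPM in DOX+AICAR (median 53.3). The groups were just apart, and the change of -0.36 (SE 0.076) had an adjusted p of 0.0828. Its paralogue Nr1d1 overlapped widely between groups, with 97.3 ± 22.8 TPM in DOX+saline against 81.8 ± 16.5 TPM in DOX+AICAR (change -0.24, adjusted p = 0.485).

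The other Period genes also had lower means. Per2 was at 25.1 ± 5.38 TPM in DOX+saline against 18.2 ± 3.12 TPM in DOX+AICAR (change -0.44, SE 0.14, adjusted p = 0.19), and Per3 at 18.7 ± 3.95 and 13.4 ± 2.43 TPM (-0.45, SE 0.14, adjusted p = 0.177). Both overlapped between the groups and neither was called. Saline libraries were lower still, 4.97 ± 0.569 TPM for Per2 and 3.12 ± 0.381 TPM for Per3.

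Bmal1 (ENSRNOG00000014448), the activator, lay the other way. It stood at 11.7, 15.9, 7.46, 4.08, 12.3 and 12.05 TPM in DOX+saline and at 14.9, 13.6, 27.35, 24.7, 21.3 and 14.8 TPM in DOX+AICAR. DOX+saline 2 reached into the DOX+AICAR range, and DOX+saline 4, which had the highest Dbp, had the lowest Bmal1. The change of 0.87 (SE 0.27) was not called (adjusted p = 0.185), and saline libraries were far above both at 52.8 to 62.6 TPM. Cry1 was at 10.2 ± 2.21 and 12.3 ± 1.38 TPM (change 0.26, adjusted p = 0.343), Clock at 20.1 ± 3.27 and 23.0 ± 2.401 TPM (0.20, adjusted p = 0.436) and Npas2 at 6.58 ± 2.26 and 6.17 ± 2.171 TPM (-0.07, adjusted p = 0.924). In Per1, Per2, Per3, Dbp, Nr1d2, Nr1d1, Bmal1, Cry1 and Clock the DOX+AICAR mean lay between the DOX+saline and saline means. Npas2 was lowest in DOX+AICAR. Outside the clock both patterns occurred. The DOX+AICAR mean lay between the others in Acta1, Nppb, Gja1, Atp2a2 and Ldha. In Col3a1, Cd68, Gdf15, Ccl2, Cdk1 and Tek it lay further from saline than the DOX+saline mean. How many of all genes lay between was not counted.

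**Figure D2:**
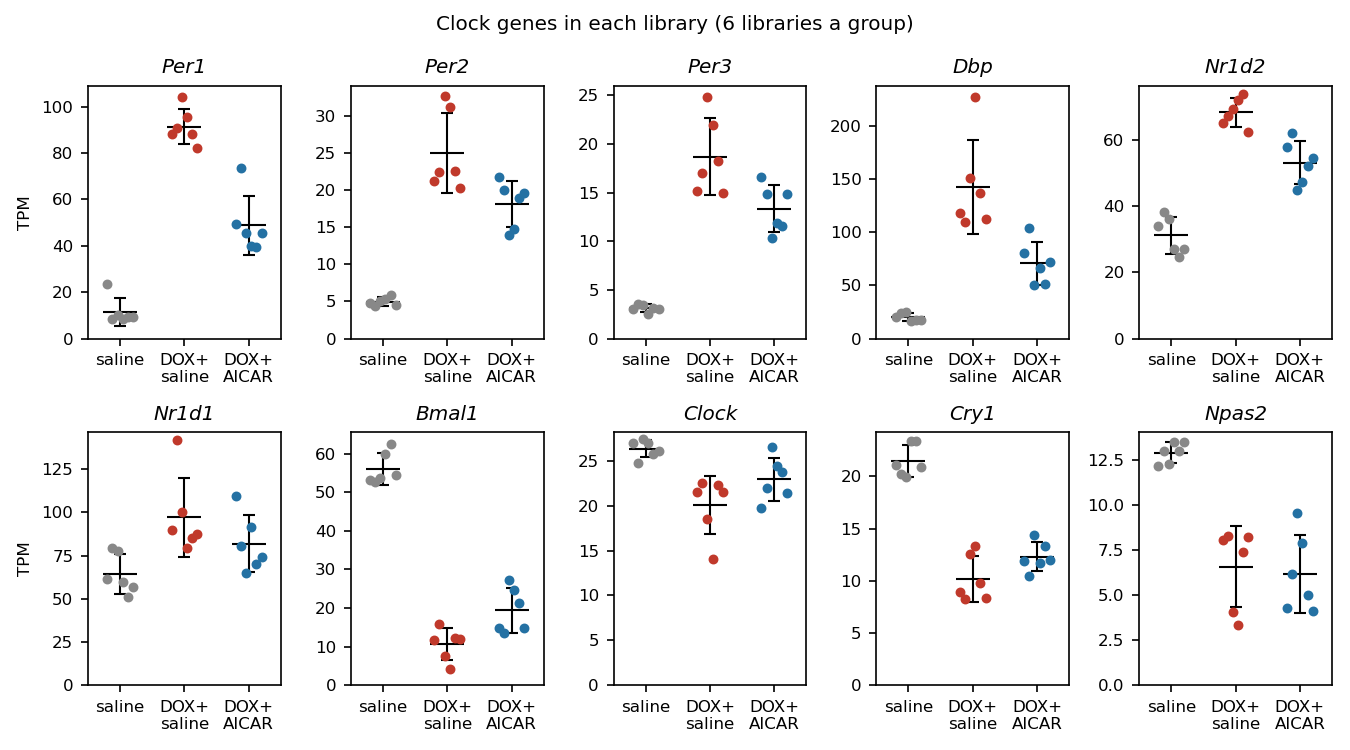
Level of the 10 clock genes in each library (vertical axis, TPM; each point 1 library; bars, mean ± SD of 6). Per1, Dbp and Nr1d2 show no overlap between DOX+saline and DOX+AICAR. Bmal1 has the higher mean in DOX+AICAR, but the groups overlap.

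Fabp4 (ENSRNOG00000010805) encodes a fatty acid binding protein of capillary endothelium, fat cells and macrophages. It stood at 1241, 1048, 1236, 1059, 1252 and 1237 TPM in DOX+saline and at 789.5, 864, 727, 891, 795 and 958 TPM in DOX+AICAR. No library of one group reached the other. The change was -0.49 (SE 0.073, 95% interval -0.65 to -0.34, adjusted p = 0.0319), 0.71 times the DOX+saline level, and saline libraries, at 871 ± 69.7 TPM, lay in the DOX+AICAR range. The call was lost with DOX+saline 1 and 6 as 1 sample (-0.48, adjusted p = 0.079), without the filter on low values (adjusted p = 0.0655) and in 10 of the 12 fits that left out 1 library (adjusted p from 0.0208 to 0.101 over the 12).

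Markers of fat cells, endothelium and macrophages, which are all known to make FABP4, were read in the same libraries. Adipoq, the fat cell hormone adiponectin, was near 0 in saline libraries (at most 0.3275 TPM), ranged from 11.03 to 118 TPM in DOX+saline and from 10.96 to 59.4 TPM in DOX+AICAR. The means were 71.3 ± 39.1 and 34.3 ± 19.3 TPM (change -0.93, SE 0.55, adjusted p = 0.467). The groups overlapped in part: DOX+saline 1, 3, 5 and 6 were above every DOX+AICAR library, and DOX+saline 2 and 4 were within the DOX+AICAR range. Of the 2 listed adipocyte markers, 1, Fabp4 itself, was called lower, where 0.0484% of all genes were. Saline libraries held 871 ± 69.7 TPM of Fabp4 with Adipoq near 0. Of the macrophage genes, Cd68 was at 28.4 ± 7.97 and 39.4 ± 4.69 TPM and Cd163 at 36.7 ± 8.58 and 25.9 ± 8.24 TPM, neither called. The part of these cell types in the Fabp4 result was not tested.

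None of the listed endothelial genes was called. Of 6 tested, 5 had a change below 0, with a median of -0.11, and 2 had an unadjusted p below 0.05. These were the angiopoietin receptor Tek, at 48.1 ± 2.47 and 42.5 ± 5.02 TPM (change -0.18, adjusted p = 0.293), and endothelial nitric oxide synthase, Nos3, at 41.8 ± 3.501 and 38.3 ± 1.06 TPM (-0.12, adjusted p = 0.325). Tek stood at 62.4 ± 3.71 TPM in saline libraries. The growth factor Vegfa (-0.09), its receptors Kdr (0.13) and Flt1 (-0.11) and the clotting factor gene Vwf (-0.13) had adjusted p from 0.593 to 0.694.

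None of the tested subunit genes of AMPK, the kinase that AICAR activates, and none of 3 purine enzyme genes was called. All 7 genes of the AMPK and mitochondrial regulator list were uncalled, with changes from -0.06 to 0.18. The catalytic subunit gene Prkaa2 was at 146 ± 26.3 TPM in DOX+saline against 164 ± 9.96 TPM in DOX+AICAR (change 0.18, 95% interval -0.06 to 0.42). The upstream kinase Stk11 changed by 0.03 (-0.07 to 0.13), the subunit Prkab1 by -0.02 (-0.14 to 0.11), the mitochondrial transcription factor Tfam by -0.05 (-0.15 to 0.05) and the coactivator Ppargc1a by 0.10 (-0.20 to 0.40). Adk, adenosine kinase, was at 105 ± 9.397 and 106 ± 12.7 TPM (0.01, interval -0.17 to 0.19), and Impdh2, which commits IMP to guanine nucleotides, at 137 ± 11.8 and 131 ± 4.81 TPM (-0.06, interval -0.18 to 0.05).

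Ada, adenosine deaminase, which converts adenosine to inosine, was higher in every DOX+AICAR library. It stood at 18.4, 18.8, 17.3, 18.2, 16.1 and 17.1 TPM in DOX+saline and at 19.7, 22.45, 22.6, 20.85, 20.1 and 26.5 TPM in DOX+AICAR. The gap between the groups was narrow and the change of 0.30 (SE 0.07) was not called (adjusted p = 0.0986). Saline libraries spanned 13.7 to 19.9 TPM.

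Among 7 genes of glucose use none was called. In 1 every DOX+AICAR library was higher, as in 0.67% of all genes. Ldha, the muscle lactate dehydrogenase, ranged from 1092 to 1287 TPM in DOX+saline (median 1173) and from 1294 to 1548 TPM in DOX+AICAR (median 1312), below the saline range of 1479 to 1580 TPM but for DOX+AICAR 12. Its change was 0.20 (SE 0.053, adjusted p = 0.132). The glucose transporter Slc2a4 (0.05), the pyruvate dehydrogenase kinase Pdk4 (-0.15) and the transporter regulator Txnip (0.01) had adjusted p from 0.776 to 0.985. Pfkfb3, which makes the activator of phosphofructokinase, varied widely, with 47.8 ± 29.8 TPM in DOX+saline against 23.1 ± 13.1 TPM in DOX+AICAR (-0.90, adjusted p = 0.362).

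Fatty acid genes were mostly slightly below 0, 10 of 13, with a median change of -0.04 and no call. The mitochondrial carrier gene Ucp2, whose unadjusted p was below 0.05, stood at 784 ± 75.0 TPM without AICAR and 925 ± 61.9 TPM with it (0.24, adjusted p = 0.144). The abundant Fabp3 (-0.06), Lpl (-0.04) and Acadm (-0.04) had adjusted p from 0.785 to 0.899. Of 7 sterol and fat synthesis genes none was called. Their spread within groups was wide: the desaturase Scd ran from 8.0 to 135 TPM in DOX+saline and from 9.21 to 204 TPM in DOX+AICAR (change 0.89, adjusted p = 0.608), and fatty acid synthase, Fasn, from 11.2 to 183 and from 24.4 to 162 TPM (-0.23, adjusted p = 0.909). Saline libraries held at most 0.323 TPM of Scd and 7.32 TPM of Fasn. Acaca and Hmgcs1 changed by -0.25 and -0.09.

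None of the listed muscle genes was called. The called identifiers without names were not assigned to any list. Of 10 genes of cardiac stress and contraction, 2 were higher and 2 lower at an unadjusted p below 0.05. Lower were 2 genes of the fetal programme that stressed hearts re-express: skeletal actin, Acta1, with 2194 ± 413 and 1635 ± 298 TPM (change -0.42, SE 0.15, adjusted p = 0.212), and the natriuretic peptide Nppb, with 1123 ± 189 and 915 ± 74.4 TPM (-0.28, SE 0.10, adjusted p = 0.249). Saline libraries held 677.5 ± 239.9 and 291 ± 73.1 TPM of them. Higher were the gap junction gene Gja1, with 319 ± 53.6 and 399 ± 48.7 TPM (0.33, SE 0.11, adjusted p = 0.197, saline 570 ± 45.6 TPM), and desmin, Des, with 2165 ± 82.6 and 2386 ± 147 TPM (0.14, adjusted p = 0.209, saline 2017 ± 60.8 TPM). In each of the 4 the groups overlapped. Nppa, the most abundant stress marker, was at 5390 ± 1161 and 4915 ± 420 TPM (-0.11, adjusted p = 0.734), and Tnni3 changed by -0.03.

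Of 4 calcium handling genes, 1 had an unadjusted p below 0.05. The pump Atp2a2 was at 2347 ± 179 and 2547 ± 103 TPM (0.12, adjusted p = 0.321, saline 3198 ± 212 TPM), while Ryr2 (0.09), Casq2 (0.06) and Pln (-0.01) had adjusted p from 0.561 to 0.986. The 9 mitochondrially encoded genes were uncalled, with a median change of -0.02. Mt-co1, Mt-atp6, Mt-co3 and Mt-cyb changed by -0.02 to -0.04.

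The listed connective tissue genes had higher means with AICAR in most cases and no call. Of 11 matrix genes tested 10 had a change above 0, with a median of 0.39 and 4 at an unadjusted p below 0.05. Col3a1, a fibrillar collagen, stood at 1180, 530, 618, 1045, 741 and 1193 TPM in DOX+saline and at 916, 1371, 1326, 1530, 1815 and 912 TPM in DOX+AICAR (0.59, SE 0.24, adjusted p = 0.278). The groups overlapped, with DOX+saline 1 and 6 the highest of their group. In saline libraries Col3a1 stood at 534 ± 68.6 TPM. Fibronectin, Fn1 (0.50, adjusted p = 0.288), the protease inhibitor Timp1 (0.56, adjusted p = 0.324) and the protease Mmp2 (0.31, adjusted p = 0.334) were the other 3. Col1a1 (0.51) and Col1a2 (0.39) had adjusted p of 0.38 and 0.481, and Dcn changed by -0.03.

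None of the listed signals that drive scarring was called. Of 5 tested, 3 had a change below 0. Ccn2 (-0.23), Ccn1 (-0.46) and Tgfb1 (0.16) had adjusted p from 0.564 to 0.656. Acta2, the smooth muscle actin of mural cells and myofibroblasts, stood at 590 and 572 TPM in DOX+saline 1 and 6, at 242 to 376 TPM in the other 4, and at 146 to 304 TPM in DOX+AICAR. Its change was -0.71 (SE 0.23, adjusted p = 0.2) and -0.39 with both of those libraries left out. The other fibroblast and mural markers were Vim (0.17), Pdgfra (0.13) and Pdgfrb (-0.01).

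Proliferation genes had 5 of 6 changes above 0, a median of 0.44 and no call. Cdk1 was at 6.34 ± 3.18 and 10.1 ± 2.81 TPM (0.69, adjusted p = 0.321) and Ccnd1 at 55.8 ± 13.1 and 72.1 ± 11.02 TPM (0.39, adjusted p = 0.286). In saline libraries Cdk1 stood at 3.36 ± 1.67 TPM. Top2a, a target of doxorubicin's family of poisons, changed by 0.47 (adjusted p = 0.6) and Pcna by -0.02.

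Leukocyte markers were 8 above and 4 below 0 of 12, with no call. Of these, 2 macrophage genes differed in opposite directions at an unadjusted p below 0.05. Cd68, a lysosomal marker of macrophages, stood at 38.6, 19.2, 26.7, 23.5, 24.8 and 37.8 TPM in DOX+saline and at 39.3, 30.3, 41.9, 40.1, 43.7 and 40.9 TPM in DOX+AICAR (0.49, SE 0.16, adjusted p = 0.19). DOX+saline 1 and 6 reached past the lowest DOX+AICAR library. In saline libraries Cd68 stood at 9.01 ± 0.853 TPM. Cd163, a haemoglobin scavenger receptor of resident macrophages, was at 36.7 ± 8.58 and 25.9 ± 8.24 TPM (-0.51, adjusted p = 0.339). Cd74 (0.17), Lgals3 (0.24), Cd14 (0.46) and Cd4 (-0.25) had adjusted p from 0.36 to 0.606. All 12 markers were detected.

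**Figure D3:**
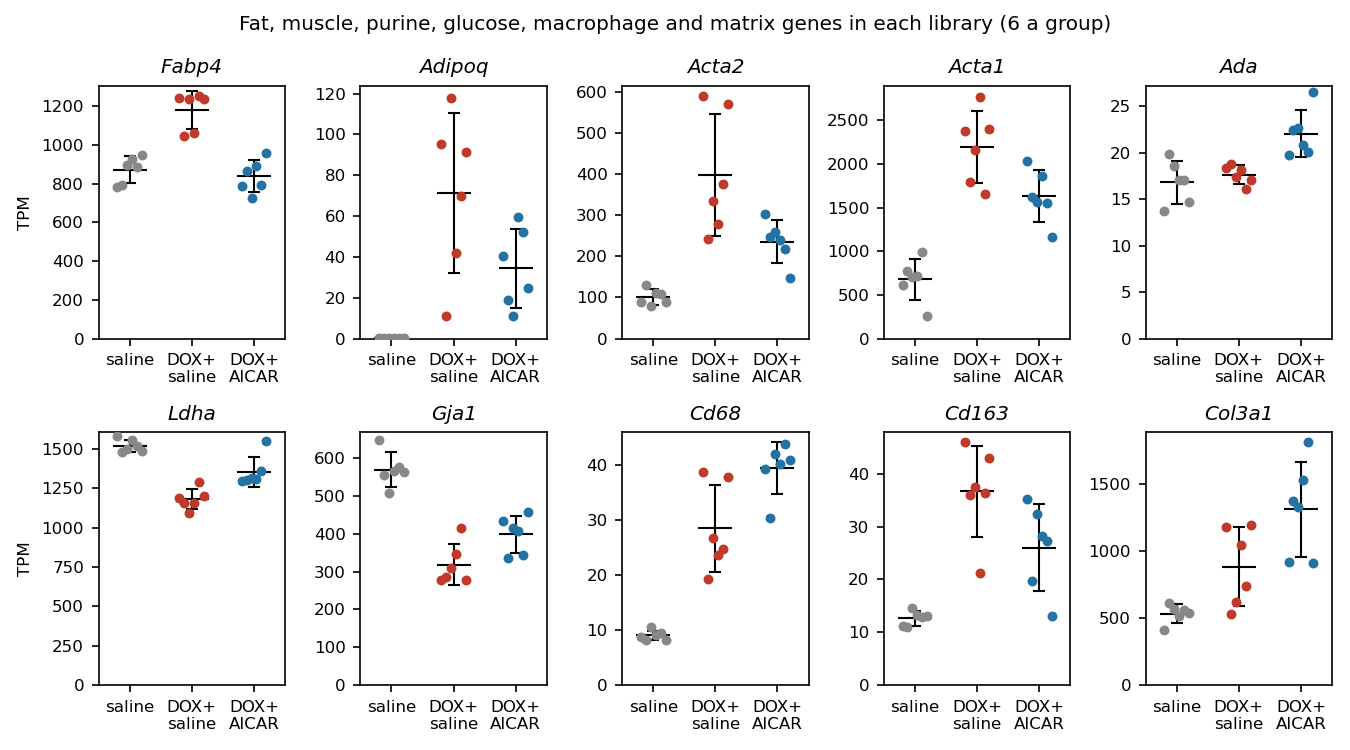
Levels of 10 genes outside the clock in each library (vertical axis, TPM; each point 1 library; bars, mean ± SD of 6). Fabp4, Ada and Ldha show no overlap between DOX+saline and DOX+AICAR; in Acta2 the points at 590 and 572 TPM are DOX+saline 1 and 6.

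Cytokine and adhesion genes were 9 of 10 above 0, with a median of 0.36 and no call. The monocyte attractant Ccl2 was at 24.1 ± 3.82 and 48.3 ± 26.1 TPM (0.82, adjusted p = 0.256), with 95.1 TPM in DOX+AICAR 9 and 15.9 TPM in DOX+AICAR 8, below all DOX+saline libraries. Its level in saline libraries was 6.67 ± 1.44 TPM. Stat3 (0.11), Nfkbia (-0.35), Socs3 (0.31) and Icam1 (0.53) had adjusted p from 0.436 to 0.652. Higher means rested in part on DOX+AICAR 7 and 9. Icam1 stood at 127 and 76.1 TPM in them and at 16.3 to 29.2 TPM in the rest of the group. Socs3 stood at 88.4 and 71.8 TPM in them and at 27.9 to 53.8 TPM in the rest. The 7 immediate early genes had no unadjusted p below 0.05. Of them Junb (0.01), Jun (0.04), Egr1 (-0.37) and Atf3 (-0.09) were the most abundant.

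Stress response genes were mostly a little above 0. Of 6 p53 and DNA damage targets none was called. Cyclin G1, Ccng1, was at 706 ± 59.1 and 800.5 ± 45.7 TPM (0.18, SE 0.058, adjusted p = 0.185), the cell cycle inhibitor Cdkn1a at 154 ± 21.1 and 187 ± 40.3 TPM (0.27, adjusted p = 0.367), Gadd45a changed by 0.18 and Bax by -0.04. Of 6 genes of the integrated and endoplasmic reticulum stress responses, 2 had an unadjusted p below 0.05: the chaperone Hspa5 at 563 ± 65.2 and 646 ± 46.2 TPM (0.20, adjusted p = 0.245), and the stress hormone Gdf15 at 30.1 ± 6.25 and 50.2 ± 22.9 TPM (0.64, adjusted p = 0.249). Gdf15 stood at 4.59 ± 0.818 TPM in saline libraries. Atf4 (-0.03) and Ddit3 (0.16) were uncalled.

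Antioxidant genes had 8 of 9 changes above 0 with a median of 0.09. The exception was Sod1, the cytosolic superoxide dismutase, at 628 ± 33.98 and 577 ± 21.4 TPM (-0.12, SE 0.042, adjusted p = 0.213). Sod2 (0.06), Cat (0.03) and Txnrd1 (0.14) were uncalled. The ferritin gene Ftl1 (0.26) and the transferrin receptor Tfrc (0.61) had adjusted p of 0.367 and 0.379, and the metallothionein Mt2A, with 147 and 139 TPM in DOX+saline 1 and 6 against 43.1 to 80.3 TPM in the rest of that group, changed by -0.50 (adjusted p = 0.412).

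The remaining lists held no call. The 7 atrogenes and autophagy genes had a median change of 0.0076, with Sqstm1 at 0.01, Map1lc3b at 0.07, Trim63 at 0.12 and Fbxo32 at 0.26. Among cell death regulators, Bnip3 changed by -0.0038, Bcl2l1 by -0.06 and Bcl2 by -0.10. Of the reference genes, Gapdh changed by 0.09, Actb by 0.01 and B2m by 0.28 (adjusted p = 0.308).

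**Figure D4:**
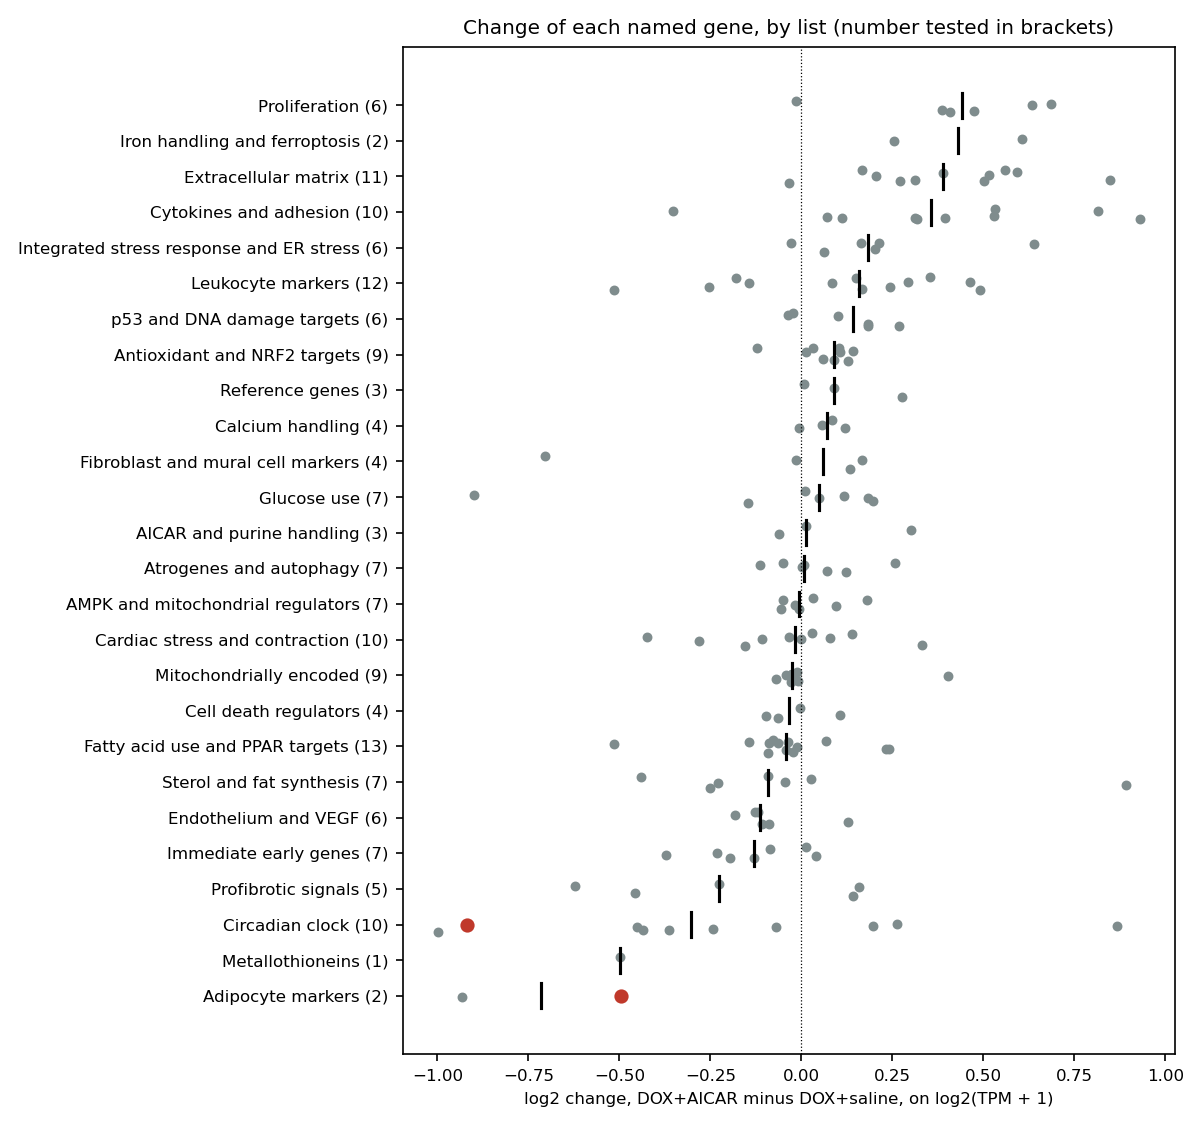
Log2 change of each of the 171 named genes (horizontal axis, DOX+AICAR minus DOX+saline on log2(TPM + 1)) by list; black bars are list medians and red points the 2 called genes. Proliferation, matrix and cytokine genes lie mostly to the right of 0, clock genes on both sides.

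The largest called difference belonged to an identifier without a name here. ENSRNOG00000005247 stood at 3.31, 1.77, 2.22, 1.97, 1.97 and 1.53 TPM in DOX+saline and at 56.02, 48.4, 46.5, 39.2, 41.3 and 64.2 TPM in DOX+AICAR. The groups lay far apart, with a change of 4.01 (SE 0.14, adjusted p = 1.37e-08), and it was called in all 23 alternatives. The saline libraries were split, with 35.4 and 57.5 TPM in saline 52 and 54 and 1.56 to 3.48 TPM in the other 4. High and low levels thus also occurred among animals given neither drug.

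A further 3 identifiers without names are given under the same rule. ENSRNOG00000005447 was higher with AICAR, at 28.5 ± 4.28 and 43.1 ± 5.01 TPM (0.58, adjusted p = 0.0462), with 60.3 ± 2.49 TPM in saline. ENSRNOG00000005387 was lower, at 136 ± 14.8 and 84.0 ± 9.05 TPM (-0.69, adjusted p = 0.0149), with 53.6 ± 5.83 TPM in saline. ENSRNOG00000037087 was lower, at 156 ± 11.96 and 124 ± 5.58 TPM (-0.32, adjusted p = 0.0462), with 120 ± 7.25 TPM in saline. With DOX+saline 1 and 6 as 1 sample, none of these 3 was called (adjusted p = 0.0528 for ENSRNOG00000005387). Over the 12 fits that left out 1 library, ENSRNOG00000005387 was called in each (adjusted p up to 0.0499). ENSRNOG00000005447 lost its call in 10 of them (adjusted p from 0.00755 to 0.105) and kept it without DOX+saline 2 or 5. ENSRNOG00000037087 lost its call in 10 (adjusted p from 0.0257 to 0.114) and kept it without DOX+saline 2 or 6.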

How the data were processed

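The deposited table holds TPM values that the authors made, 1 column for each of 18 libraries and 32545 Ensembl identifiers. Per the submitters' processing notes, the tools were bcl2fastq 2.17.1.14, HISAT2, featureCounts and Subread 1.5.0, with genome build Rnor_6.0. Annotation and strand setting: not given in the sources used here. The 14475 genes that reached 1 TPM in 6 or more of the 12 libraries were tested on log2(TPM + 1) with limma 3.58.1 (R 4.3.3, mean-variance trend, Benjamini-Hochberg). The test was also run on simulated data with independent noise for each gene and library. That simulation held no pair as alike as DOX+saline 1 and 6, so it does not show how stable the calls are.

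Whole reads and gene lengths, recovered from the steps of the TPM values, gave depth and the voom alternative. Single values per library used two-sided exact permutation tests over 924 assignments.

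The gene table used here (GRCr8) matched 0 identifiers. The 26 lists, 183 identifiers, were written from general knowledge, with earlier results of these data known. The planned comparison of lengths with RefSeq proteins could not be run. Instead each row's place was compared with GRCr8 gene order, within 400 genes, a check and limit set after seeing the table. Left out were 1 identifier not in the table, 2 out of order, and, after their values were seen, 3 near 0 TPM in heart and 1 spread more than 10-fold within groups. Identifiers recalled after the table had been seen were not used.

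Named are called genes, the 4 most abundant of each list, the 8 named genes of smallest p, and 2 called identifiers without names in each direction. Other named genes with an unadjusted p below 0.05, the rest of the clock list and Pfkfb3 were chosen after their values were seen. Some named genes that these rules pick are counted in their lists but not reported here. Alternatives covered pseudocount, filter, scaling, libraries in the fit, weights, voom and each library left out. P-values measure the spread between these libraries.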

Additional observations from a re-analysis of the deposited data

Results flagged for a closer look

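In each gene the report names, each group of 6 libraries was searched for 1 library standing apart, with a gap to its nearest neighbour of more than 0.625 of the group's whole range. Chance gives about 1 in 20 such groups, and 19 of 232 groups (8.19%) showed one.

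In the clock genes, DOX+AICAR 8 had 73.6 TPM of Per1 where the other 5 libraries had 39.6 to 49.5, DOX+saline 4 had 227 TPM of Dbp where the others had 109 to 151, and DOX+saline 2 had 142 TPM of Nr1d1 where the others had 79.2 to 99.9. Leaving out DOX+AICAR 8 gave the smallest adjusted p of Per1 (7.86e-05).

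DOX+AICAR 8 was also the lowest of its group in Cd68 (30.3 TPM, others 39.3 to 43.7) and in B2m (611.5 TPM, others 777 to 876). DOX+AICAR 12 was highest in Ldha (1548 TPM, others 1294 to 1358) and Bnip3 (470.4 TPM, others 300.4 to 352.5) and lowest in Ucp2 (807.5 TPM, others 924.5 to 977). Cd14 stood at 74.8 TPM in DOX+AICAR 9 (others 27.1 to 40.5), Gdf15 at 93.0 TPM in DOX+AICAR 11 (others 29.0 to 50.2), Pfkfb3 at 48.9 TPM in the same library (others 12.55 to 23.3) and Txnrd1 at 73.1 TPM in DOX+AICAR 7 (others 94.1 to 103).

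In DOX+saline, library 4 was highest in Egr1 (135 TPM, others 75.3 to 89.1) and lowest in Pdk4 (334 TPM, others 588 to 689.5). Library 3 was highest in Impdh2 (160.1 TPM, others 128 to 138) and Scd (135 TPM, others 8.0 to 54.2). Library 1 was lowest in Mt-atp6 (9336 TPM, others at least 10428) and Mt-cyb (7420 TPM, others at least 8067). Library 5 was highest in ENSRNOG00000005447 (37.01 TPM, others 25.2 to 28.2).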

How the results depend on the processing

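The 16 calls came to 16 and 17 with pseudocounts of 0.5 and 0.1, 14 with median-of-ratios factors, 18 with quantile normalization and 12 with voom. They came to 7 without the filter on low values, 27 at 5 TPM or more, 214 (96 higher, 118 lower) with all 18 libraries in the fit and 651 (257 higher, 394 lower) with array weights. Counting DOX+saline 1 and 6 as 1 sample left 1 call, and leaving both out left 3; these 2 alternatives were chosen after seeing the data. Leaving out 1 library gave 2 calls (without DOX+AICAR 7, 9 or 10) to 62 (without DOX+saline 2). Beside the values in the report, array weights called Acta1, Acta2, Ada, Ccng1, Dbp, Gja1, Ldha, Nppb, Nr1d2 and Pfkfb3, and the 18-library fit called Dbp and Ldha. With 1 library left out, the group difference ran from -0.70 to 0.50 M recovered reads, from -0.22 to 0.077 percentage points of mitochondrially encoded TPM, and from -312.1 to -169.1 genes at 1 TPM or more. The causes of these shifts were not tested. No paired analysis was possible because the groups share no replicate numbers.

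None of the 6 called genes given by name or identifier changed direction under the 23 alternatives. Some uncalled genes did, most of small change but not Fasn and Acaca, with adjusted p of at least 0.469. With array weights these were Acadm (0.039), Actb (-0.19), Bnip3 (0.066), Fabp3 (0.032), Junb (-0.0696), Lpl (0.0059), Mt-co1 (0.0016), Mt-co3 (0.0056), Pln (0.11), Prkab1 (0.022), Tnni3 (0.057), Tnnt2 (0.029), Vegfa (0.011). With voom these were Actb (-0.013), Adk (-0.00598), Junb (-0.0072), Sqstm1 (-0.011), Txnip (-0.0093). With median-of-ratios factors these were Bnip3 (0.0042), Pln (0.0013), Tnnt2 (0.0065). With quantile normalization these were Actb (-0.021), Tnnt2 (0.022). With DOX+saline 1 and 6 averaged these were Adk (-0.0072), Dcn (0.0057), Fasn (0.076), Jun (-0.0101), Pdgfrb (0.014), Sqstm1 (-0.0052), Txnip (-0.017). With both left out these were Acaca (0.11), Adk (-0.036), Atf4 (0.042), Bcl2l1 (0.052), Dcn (0.065), Fasn (0.53), Hmgcs1 (0.0094), Jun (-0.087), Kdr (-0.012), Npas2 (0.0997), Nppa (0.026), Pcna (0.021), Pdgfrb (0.057), Slc2a4 (-0.025), Sqstm1 (-0.024), Stk11 (-0.0065), Txnip (-0.056). With 1 library left out the changes ran from -0.078 to 0.0017 for Acadm, -0.069 to 0.093 for Actb, -0.027 to 0.065 for Adk, -0.22 to 0.12 for Atf3, -0.056 to 0.0012 for Atf4, -0.081 to 0.0022 for Bax, -0.089 to 0.059 for Bnip3, -0.0900 to 0.0073 for Dcn, -0.70 to 0.081 for Fasn, -0.016 to 0.13 for Jun, -0.20 to 0.19 for Junb, -0.099 to 0.0066 for Lpl, -0.058 to 0.00798 for Mt-co1, -0.056 to 0.0012 for Mt-co3, -0.0598 to 0.0014 for Mt-cyb, -0.22 to 0.019 for Npas2, -0.068 to 0.028 for Pcna, -0.062 to 0.043 for Pdgfrb, -0.058 to 0.047 for Pln, -0.0401 to 0.022 for Prkab1, -0.032 to 0.045 for Sqstm1, -0.077 to 0.00603 for Tnni3, -0.026 to 0.019 for Tnnt2, -0.048 to 0.081 for Txnip. With 6 libraries a group, the 95% interval of a named gene's change was 0.53 wide at the median. That width is not a limit of detection. Larger changes also went uncalled, such as those of Dbp (-0.998) and Bmal1 (0.87), so an uncalled gene may still differ.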
